A study of Mus musculus with 6 samples.

Results

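The genes described here are 10 liver enzymes of methionine, glycine and methyl-group metabolism, taken by symbol from the deposited expression table: Mat1a, Gnmt, Bhmt, Ahcy, Cbs, Cth, Pemt, Gldc, Shmt1 and Agxt. All 10 were found among the 46095 gene symbols, and all 10 passed the filter on low values, which kept 10633 genes. The libraries came from C57BL/6 mice kept on a high-fat diet for 26 weeks, which both groups share. HFD-ARRB1-KO (3 libraries) lacks ARRB1, the adaptor protein beta-arrestin 1 of G protein-coupled receptors, and HFD-WT (3 libraries) is wild type. The source is liver and the cell type is given as hepatocyte. The age of the mice at the start of the diet, and whether a library came from 1 mouse or from a pool, are not given in the sources used here.

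S-adenosylmethionine is the methyl donor of the cell, and the liver makes and uses much of it. MAT1A makes it from methionine, methyltransferases such as GNMT and PEMT spend it, and AHCY splits the product S-adenosylhomocysteine into homocysteine and adenosine. Homocysteine is either methylated back to methionine, in liver partly by BHMT with betaine as the donor, or passed by CBS and CTH through cystathionine to cysteine. Glycine is both the acceptor of the GNMT reaction and a substrate or product of GLDC, SHMT1 and AGXT.

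In the ARRB1 knockout libraries, 2 of the 10 genes fell and none rose. These were Cth, the last enzyme of the route to cysteine, and Gnmt, which methylates glycine, at 0.608 and 0.641 times their wild-type means (n = 3 each). Agxt was at 0.679 times wild type and did not pass the test. Mat1a, Bhmt, Ahcy, Gldc and Shmt1 had overlapping groups, with knockout means of 0.900 to 1.13 times wild type. Of all tested genes, 1.60% were called lower and 5.30% higher (limma, adjusted p under 0.05), beside which the 2 of 10 members stand as a description, since the members were chosen with earlier results known.

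Levels are given in FPKM, fragments scaled to gene length and library size, so that levels of different genes can be set beside each other, and log2 fold changes are of FPKM + 1, knockout minus wild type. The libraries held an estimated 13910000 to 35060000 fragments, with knockout replicate 1 the shallowest. Between 2391 and 188046 reads lay behind each member in each library, so that counting error was at most 2.05% of a level, below the smallest coefficient of variation of any member within a group (3.46%). Arrb1 (chromosome 7, 99535466 to 99606771, GRCm38) checked the titles, with 0.918, 1.05 and 1.16 FPKM in knockout replicates 1 to 3, against 3.86, 22.7 and 16.9 FPKM in wild-type replicates 1 to 3. Its log2 fold change was -2.64 ± 0.514 (SE; limma, adjusted p = 0.0275), and the call was lost on leaving out any library other than wild-type replicate 1 (adjusted p from 0.0596 to 0.1001). The genotype field of knockout replicates 2 and 3 reads ARRB2 and ARRB3 in place of ARRB1, and Arrb1 was low in both.

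Hepatocyte markers (11 genes, such as albumin) summed to 48186 to 56611 FPKM in knockout libraries and 50632 to 59047 FPKM in wild-type libraries, and 1 of the 11, the aminotransferase gene Tat, was called lower. This count and those below are to be read against 1.60% of all tested genes called lower and 5.30% called higher. Markers of other liver cells were present in both groups, with none of the listed ones at 0 in all libraries. Those of lipid-associated macrophages summed to 63.9, 167 and 94.8 FPKM in knockout replicates 1 to 3 and 38.9 to 73.4 FPKM in wild type. Of 7 tested, 3 were called higher. Stellate cell markers summed to 164, 231 and 161 FPKM in knockout replicates 1 to 3 and 127 to 146 FPKM in wild type. Of the 12, 3 were called higher, all of them collagen genes. Endothelial markers (131 to 149.9 FPKM in knockout, 115 to 135 FPKM in wild type) had 2 of 10 called higher. Kupffer cell markers (346, 437 and 357 FPKM in knockout replicates 1 to 3, 328 to 358 FPKM in wild type) had 1 of 11 called lower. Only 3 of the 11 had a negative log2 fold change, and the median of that list was 0.21. Cholangiocyte markers (43.0 to 106 FPKM in knockout, 36.6 to 69.2 FPKM in wild type) had 0 of 6 called, with 1 of 6 at an unadjusted p under 0.05 (limma), a threshold that 25.3% of all tested genes passed. Spp1, which stands in both the macrophage and the cholangiocyte list, made up much of both sums, at 29.3 to 89.0 FPKM in knockout and 23.2 to 53.3 FPKM in wild type, and was not called (limma, adjusted p = 0.526). Without it the macrophage markers summed to 34.5 to 77.9 FPKM in knockout and 15.7 to 25.6 FPKM in wild type, and the cholangiocyte markers to 13.6 to 17.2 FPKM in knockout and 13.4 to 17.9 FPKM in wild type. Fewer cells of a type and less RNA per cell cannot be told apart in these samples. The part of these markers in the results below was not tested.

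The promoter of Gnmt is shown because Gnmt was the called member with an entry in the RefSeq promoter table (GRCm38.p6), which gave 9 windows for 8 of the 10 genes and none for Mat1a and Cth. The window is chr17:46729116-46729415, minus strand, from 250 bases before to 50 after the start, with motif matches in capitals.

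Gnmt promoter: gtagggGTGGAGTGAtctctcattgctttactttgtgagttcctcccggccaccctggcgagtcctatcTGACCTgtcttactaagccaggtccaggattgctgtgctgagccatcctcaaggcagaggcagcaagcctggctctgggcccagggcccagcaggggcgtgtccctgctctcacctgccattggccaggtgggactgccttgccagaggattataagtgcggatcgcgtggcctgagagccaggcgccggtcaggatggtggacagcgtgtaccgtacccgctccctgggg

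Both strands of the windows were searched for 9 short motifs, chosen with earlier results of these data known. The first capitals, at position -244 from the start, match the sterol regulatory element core TCACNCCAC on the opposite strand, which 1.2% of all 32851 mouse promoter windows hold and 1 of the 9 windows held. The second, at -181, match AGGTCA, a partial HNF4 site, on the opposite strand, held by 16.3% of all windows and by those of Gnmt, Ahcy and Bhmt. These matches do not overlap each other. The GC box GGGCGG (35.7% of all windows) was found at Ahcy, Cbs, Gldc and Shmt1, and TGTTCT, a partial glucocorticoid receptor site (19.0%), at Agxt and Pemt. The STAT site TTCNNNGAA (8.3%) was found at Pemt and the E-box CACGTG (7.2%) at Cbs. The antioxidant response element core TGACNNNGC (12.4%), the composite core TGATGNAA of ATF4 and C/EBP (4.0%) and the TATA box TATAAA (13.6%) were not found in these letters in the 9 windows. A match is a run of letters and not a measured binding site.

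**Figure D1:**
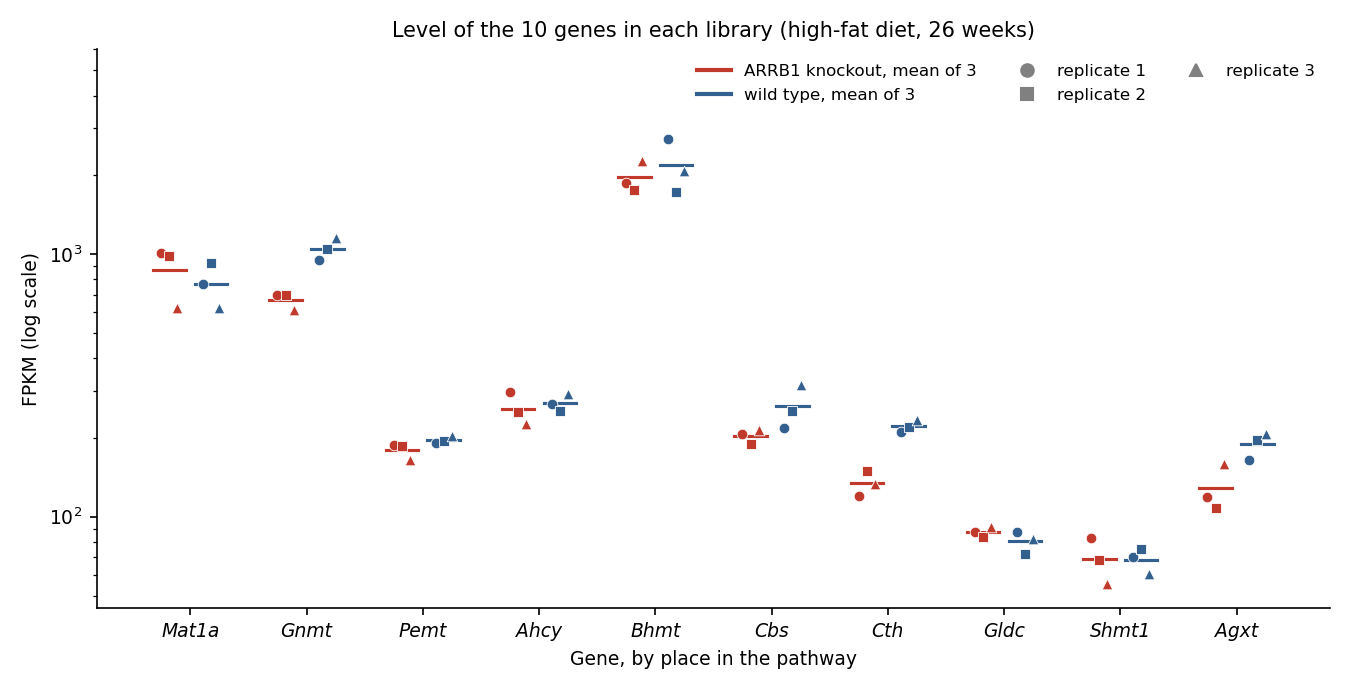
Level of the 10 genes in each library in FPKM on a log axis, ordered by place in the pathway, with knockout (red) left of wild type (blue), a bar for each group mean and a symbol for each replicate. Gnmt, Pemt, Cbs, Cth and Agxt have every knockout library below every wild-type library, and Bhmt stands highest at 1725 to 2725 FPKM.

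Mat1a (chromosome 14, 41105035 to 41124412, plus strand), the liver form of methionine adenosyltransferase, was at 1009.7, 979 and 622 FPKM in knockout replicates 1 to 3, against 767, 919 and 624 FPKM in wild-type replicates 1 to 3. Knockout replicates 1 and 2 lay above every wild-type library, and knockout replicate 3 lay just below all of them, so the groups overlapped. In each group replicate 3 was the lowest library. The log2 fold change was 0.16 ± 0.218 (SE; limma, adjusted p = 0.689), and its 95% interval of 0.787 to 1.59 times wild type holds both a moderate fall and a moderate rise. Mat2a, the form used by most other tissues, was at 1.43 ± 0.456 FPKM in knockout and 0.880 ± 0.655 FPKM in wild type (SD, n = 3 each; limma, adjusted p = 0.344).

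Gnmt (chromosome 17, 46725664 to 46729168, minus strand) encodes glycine N-methyltransferase, an abundant liver enzyme that turns glycine into sarcosine and draws off S-adenosylmethionine. It was at 698, 699 and 613 FPKM in knockout replicates 1 to 3, against 949.7, 1039.9 and 1148 FPKM in wild-type replicates 1 to 3. Every knockout library lay below every wild-type library, and the gap between the groups was larger than the range of either. The means were 669.9 ± 49.6 FPKM in knockout and 1046 ± 99.2 FPKM in wild type (SD, n = 3 each). The log2 fold change was -0.64 ± 0.115 (SE; limma, adjusted p = 0.0221), which put it among the lowest 1.86% of tested genes. An exact permutation test over the libraries, two-sided, gave p = 0.1, and no smaller p can come from 3 against 3 libraries. The call was lost without knockout replicate 2 (limma, adjusted p = 0.0722), knockout replicate 3 (0.0628) or wild-type replicate 2 (0.0788), while the log2 fold change stayed between -0.71 and -0.57.

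Pemt (chromosome 11, 59970614 to 60046489, minus strand) encodes the enzyme that makes phosphatidylcholine from phosphatidylethanolamine with 3 methyl groups from S-adenosylmethionine. Its levels were 188, 186 and 164 FPKM in knockout replicates 1 to 3 and 190.3, 194 and 203 FPKM in wild-type replicates 1 to 3. The groups did not overlap, but the highest knockout library lay only just under the lowest wild-type library. The gene was not called (log2 fold change -0.13 ± 0.0917, SE; limma, adjusted p = 0.414), with a 95% interval of 0.788 to 1.06 times wild type.

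The ratio of Gnmt to Pemt within a library does not change where each library is scaled by 1 factor. Quantile normalization can change it, and the ratios were not recomputed there. From the FPKM as deposited, the ratio was 3.71, 3.76 and 3.74 in knockout replicates 1 to 3, against 4.99, 5.36 and 5.64 in wild-type replicates 1 to 3. The knockout ratios lay close together and all below wild type, a difference of -0.51 on the log2 scale (exact two-sided permutation p = 0.1, adjusted p = 0.3 over the 6 ratios computed). The ratio of Gnmt to Mat1a was 0.691, 0.714 and 0.985 in knockout, against 1.24, 1.13 and 1.84 in wild type, so that Gnmt stood below Mat1a in each knockout library and above it in each wild-type library. That difference was -0.80 on the log2 scale (exact permutation p = 0.1, adjusted p = 0.3). Ratios computed on FPKM + 1 kept both directions with each library left out, which the lack of overlap between the groups had already fixed.

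Ahcy (chromosome 2, 155059310 to 155074497, minus strand), the hydrolase of S-adenosylhomocysteine, was at 297, 251 and 225 FPKM in knockout replicates 1 to 3 and 267, 252 and 292 FPKM in wild-type replicates 1 to 3. The groups overlapped, and knockout replicate 1 was the highest of the 6 libraries. A log2 fold change estimated at -0.079 ± 0.124 was not called (SE; limma, adjusted p = 0.730). Transcripts of Gm4737 and Gm9826 match that of Ahcy at 99.7% over 2083 bases and 99.2% over 1299 bases, so reads may be shared among them. Summed over the 3 genes, the level was 385 ± 52.8 FPKM in knockout and 403 ± 29.2 FPKM in wild type (SD, n = 3 each; exact permutation p = 0.8).

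Bhmt (chromosome 13, 93616675 to 93637961, minus strand), betaine-homocysteine methyltransferase, was the most abundant member in every library. Its levels were 1854, 1748 and 2263.5 FPKM in knockout replicates 1 to 3 and 2725, 1725 and 2069 FPKM in wild-type replicates 1 to 3. Wild-type replicates 1 and 2 were the highest and the lowest of all 6, so the knockout range lay inside that of wild type. The log2 fold change was -0.14 ± 0.189 (SE; limma, adjusted p = 0.696), with a 95% interval of 0.672 to 1.23 times wild type, and it turned to 0.062 after quantile normalization. The gene Gm5096, at 354.5 ± 45.5 FPKM in knockout and 371.5 ± 91.3 FPKM in wild type (SD, n = 3 each), matches Bhmt at 99.6% over 545 bases, which makes the level of either uncertain. With Gm5096 and Bhmt-ps1 added, the sum was 0.908 times wild type (exact permutation p = 0.7).

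Bhmt2, the neighbouring paralog (chromosome 13, 93655720 to 93674302), and Dmgdh, which handles dimethylglycine, the product of the BHMT reaction, follow Bhmt on the chromosome. Bhmt2 was at 121 ± 6.95 FPKM in knockout and 141 ± 21.1 FPKM in wild type (SD, n = 3 each; limma, adjusted p = 0.307). The ratio of Bhmt to Bhmt2 overlapped between groups (15.0 to 17.5 in knockout, 13.1 to 16.4 in wild type; exact permutation p = 0.7). Dmgdh averaged 156 FPKM in knockout and 203 FPKM in wild type, with no overlap, and just missed the threshold (log2 fold change -0.37; limma, adjusted p = 0.0518); it was named after its values were seen.

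Cbs (chromosome 17, 31608894 to 31637238, minus strand) encodes cystathionine beta-synthase, which commits homocysteine to the route towards cysteine. It was at 207, 189.8 and 213 FPKM in knockout replicates 1 to 3, against 218, 253 and 317 FPKM in wild-type replicates 1 to 3. The knockout libraries were close together and lay below the more scattered wild-type libraries. It was not called (log2 fold change -0.35 ± 0.142, SE; limma, unadjusted p = 0.0391, adjusted p = 0.174). The ratio of Bhmt to Cbs, the remethylation enzyme against the transsulfuration enzyme, was 8.97 to 10.6 in knockout and 6.53 to 12.5 in wild type, with overlap (exact permutation p = 0.5).

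Cth (chromosome 3, 157894248 to 157925077, minus strand) encodes cystathionine gamma-lyase, which releases cysteine from cystathionine and can also produce hydrogen sulfide. It was at 119, 149.8 and 133 FPKM in knockout replicates 1 to 3, against 209, 219 and 233 FPKM in wild-type replicates 1 to 3. The highest knockout library lay well below the lowest wild-type library. The means were 134 ± 15.2 FPKM in knockout and 221 ± 12.2 FPKM in wild type (SD, n = 3 each). The log2 fold change, -0.72 ± 0.107 (SE; limma, adjusted p = 0.0131), had a 95% interval of 0.512 to 0.722 times wild type, and the exact permutation p was 0.1. Leaving out wild-type replicate 2 ended the call (limma, adjusted p = 0.0514), and it held with each of the other libraries left out.

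**Figure D2:**
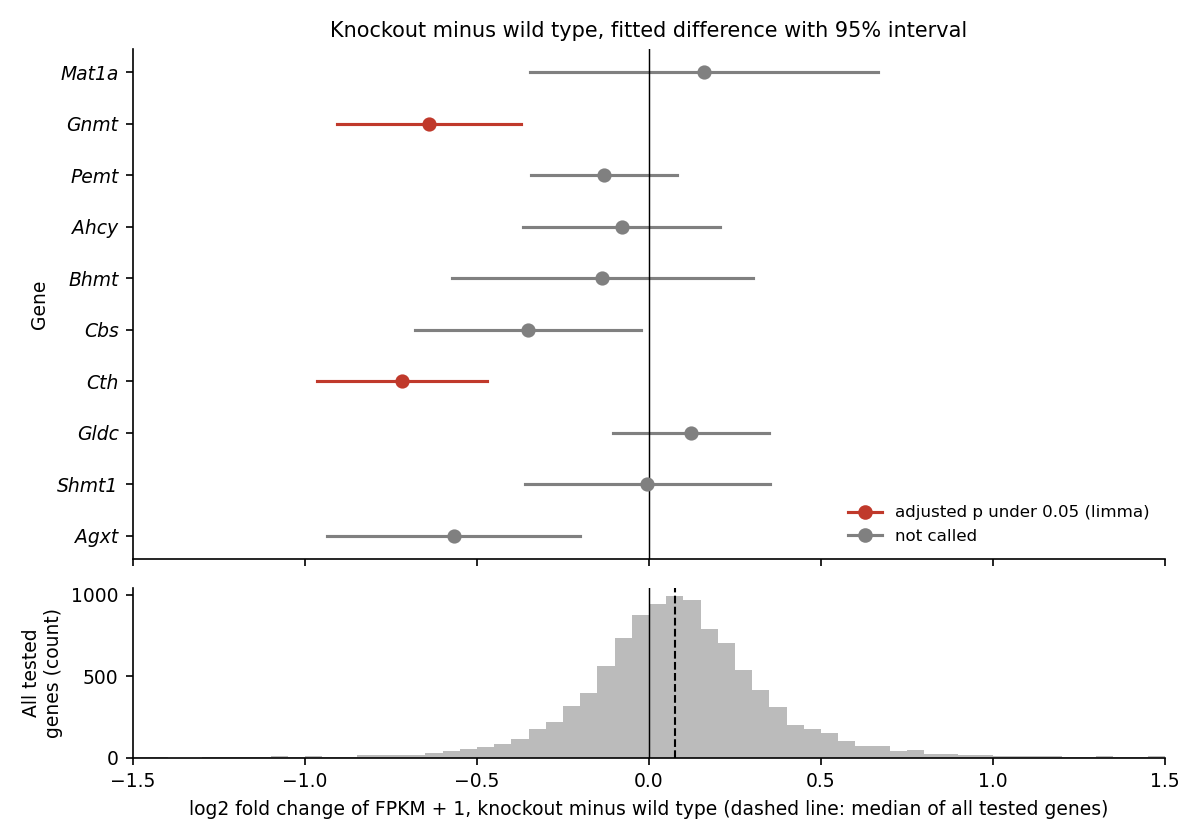
Fitted log2 fold change of FPKM + 1, knockout minus wild type, with its 95% interval for each gene (upper panel; red where the adjusted p was under 0.05), above the distribution of the same value over all tested genes (lower panel; dashed line at the median of 0.075). Gnmt and Cth are the called genes, and the interval of Agxt also stays below 0.

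Gldc (chromosome 19, 30098447 to 30175429, minus strand), the decarboxylase of the mitochondrial glycine cleavage system, was at 87.3, 83.8 and 91.5 FPKM in knockout replicates 1 to 3 and 87.5, 71.9 and 82.0 FPKM in wild-type replicates 1 to 3. The groups overlapped between 83.8 and 87.5 FPKM. Its log2 fold change was 0.12 ± 0.0977 (SE; limma, adjusted p = 0.468), with a 95% interval of 0.931 to 1.27 times wild type. Shmt1 (chromosome 11, 60788104 to 60811718, minus strand), the cytosolic enzyme that converts serine and glycine, was at 83.3, 68.2 and 55.6 FPKM in knockout and 70.1, 75.1 and 60.6 FPKM in wild type. Its knockout range enclosed the wild-type range, and the log2 fold change was -0.0043 ± 0.154 (SE; limma, adjusted p = 0.990), with a 95% interval of 0.778 to 1.28 times wild type and a sign that turned on the TPM scale (0.049). Shmt2, the mitochondrial form, was at 101 ± 3.44 FPKM in knockout and 100.5 ± 4.04 FPKM in wild type, and the ratio of Shmt1 to Shmt2 overlapped between groups (exact permutation p = 0.9; n = 3 each). Shmt1 shares 184 exonic bases with Smcr8 on the opposite strand, a gene at 6.69 to 8.13 FPKM, and without strand their reads in that stretch could not be told apart.

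Agxt (chromosome 1, 93135240 to 93145421, plus strand) encodes alanine-glyoxylate aminotransferase, which makes glycine from glyoxylate in liver peroxisomes. It was at 118, 108 and 158 FPKM in knockout replicates 1 to 3, against 164, 196 and 206 FPKM in wild-type replicates 1 to 3. The groups did not overlap, with knockout replicate 3 just under wild-type replicate 1. The means were 128 ± 26.7 FPKM in knockout and 189 ± 22.0 FPKM in wild type (SD, n = 3 each), and the difference was -0.57 ± 0.159 on the log2 scale (SE; limma, unadjusted p = 0.00766, adjusted p = 0.0755). Its 95% interval was 0.523 to 0.871 times wild type. Without knockout replicate 3 the gene passed the threshold (log2 fold change -0.73, limma, adjusted p = 0.0376).

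Over the list, 8 of the 10 genes had a negative log2 fold change, with a median of -0.13, against 36.4% negative and a median of 0.075 over all tested genes. The median of the members was -0.21 without wild-type replicate 2. Knockout libraries did not overlap wild-type libraries for 5 members, all of them lower in knockout (Gnmt, Pemt, Cbs, Cth and Agxt), while over all tested genes 7.81% lay wholly below and 23.4% wholly above wild type. The 10 genes together took 1.03%, 0.988% and 0.995% of all FPKM in knockout replicates 1 to 3, against 1.21%, 1.06% and 1.10% in wild-type replicates 1 to 3. The calls of members changed with the library left out, as given above. None was called without wild-type replicate 2, when 54 lower and 117 higher genes were called in all. Cth alone was called without knockout replicate 2, when 63 lower and 94 higher genes were called in all.

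The order of the levels was similar in both groups, with Bhmt first and Gldc and Shmt1 last, and each member stood above at least 91.9% of tested genes. In knockout, Bhmt was followed by Mat1a and Gnmt, whose ranges overlapped, and then by Ahcy, Cbs, Pemt, Cth and Agxt, of which Cth and Agxt overlapped. In wild type, Bhmt was followed by Gnmt and then Mat1a, without overlap, and these by Ahcy, Cbs, Cth, Pemt and Agxt. There Ahcy overlapped Cbs, Cbs overlapped Cth, Pemt overlapped Agxt and Gldc overlapped Shmt1. Cth thus stood above Pemt in each wild-type library and below it in each knockout library. Among the 5 members whose enzymes use pyridoxal phosphate, a form of vitamin B6, Cth was called, Cbs and Agxt had groups that did not overlap, and Gldc and Shmt1 overlapped. The remaining members were much alike in this: Gnmt was called, Pemt did not overlap, and Mat1a, Bhmt and Ahcy overlapped. Over all tested genes, 1.60% were called lower and 7.81% lay wholly below wild type. No member lies on chromosome 7, the chromosome of Arrb1.

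**Figure D3:**
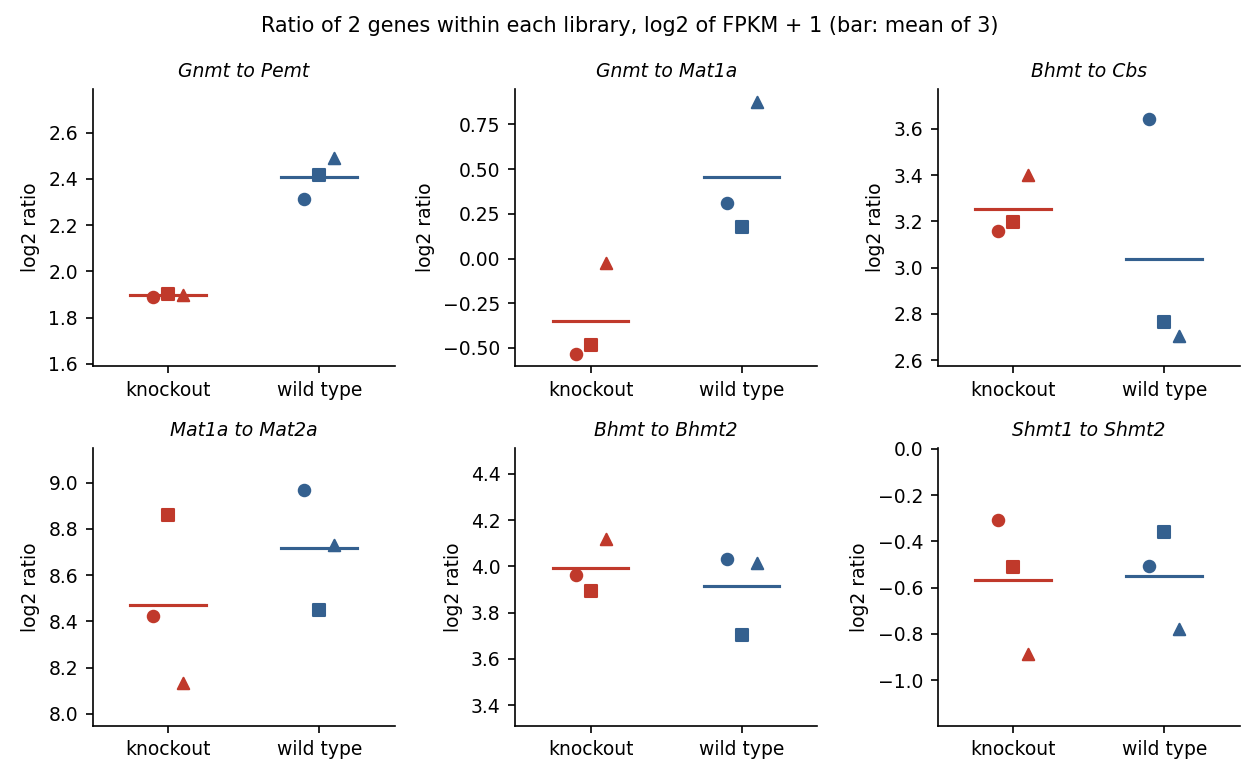
Log2 ratio of FPKM + 1 of a pair of genes within each library (vertical axis) for knockout (red) and wild type (blue), with circles, squares and triangles for replicates 1, 2 and 3 and a bar for each mean. The ratios of Gnmt to Pemt and of Gnmt to Mat1a do not overlap between groups, and the other 4 ratios do.

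Other genes of these pathways were described from 7 lists with 119 measured genes, of which 105 passed the filter. Of these, 2 were lower and 8 were higher in knockout (limma, adjusted p under 0.05), with a median log2 fold change of 0.073, close to that of all tested genes. The 9.52% called is to be read against 6.90% of all tested genes called in either direction. With single libraries left out, the lower genes numbered 2, 1 and 0 when the library omitted was knockout replicate 1, 2 or 3, and 3, 0 and 1 when it was wild-type replicate 1, 2 or 3. The higher genes numbered 4, 0 and 3 for the knockout replicates in that order, and 1, 0 and 7 for the wild-type replicates. Calls over all tested genes also fell, from 170 lower and 564 higher with all libraries. In the same order, 112, 63 and 119 were lower without a knockout replicate, and 92, 54 and 115 without a wild-type replicate. Those higher numbered 422, 94 and 256 without a knockout replicate, and 242, 117 and 329 without a wild-type replicate. Of the 6 fits with a library omitted, Fmo1 was called in 4, Gcat and Hnmt in 3 and Nnmt and Gss in 2. Gclc was called in 1 and Chpt1, Etfdh and Glyctk in 0, so none of these calls held in all 6 fits.

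In the list of cysteine, sulfide, taurine and glutathione genes, 3 of 14 tested rose and none fell, beside 5.30% higher and 1.60% lower over all tested genes. Gclc, the catalytic subunit of the rate-limiting enzyme of glutathione synthesis, was at 141, 189 and 143 FPKM in knockout replicates 1 to 3, against 96.0, 83.6 and 111 FPKM in wild-type replicates 1 to 3 (log2 fold change 0.69 ± 0.149, SE; limma, adjusted p = 0.0372). Gss, which completes glutathione, was at 51.5 ± 4.71 FPKM in knockout and 34.8 ± 5.07 FPKM in wild type (SD, n = 3 each; limma, adjusted p = 0.0418). Both had every knockout library above every wild-type library, the opposite side from Cth. Fmo1, a flavin-containing monooxygenase that can oxidise hypotaurine to taurine, was at 99.3 ± 16.0 FPKM in knockout and 57.3 ± 2.0 FPKM in wild type (SD, n = 3 each; limma, adjusted p = 0.0167). Cdo1, the dioxygenase that starts cysteine breakdown, averaged 812 FPKM in knockout and 971 FPKM in wild type and was not called (limma, adjusted p = 0.366); it was named after its values were seen.

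Of 26 tested methyltransferase and polyamine genes, 1 fell and 1 rose, a share of 7.69% that is near the 6.90% of all tested genes. Nnmt, which spends S-adenosylmethionine on nicotinamide, was at 37.5, 20.8 and 32.9 FPKM in knockout replicates 1 to 3, against 53.6, 56.9 and 54.8 FPKM in wild-type replicates 1 to 3 (log2 fold change -0.88 ± 0.194, SE; limma, adjusted p = 0.0402). Hnmt, which methylates histamine, was at 16.7 ± 2.95 FPKM in knockout and 9.04 ± 0.727 FPKM in wild type (SD, n = 3 each; limma, adjusted p = 0.0177). The 2 genes thus moved in opposite directions, with wild-type libraries close together in both.

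In the list of glycine, serine and glyoxylate genes, 1 of 18 tested fell and 1 rose (11.1%, beside 6.90% of all tested genes). Gcat, which makes glycine from a product of threonine breakdown, was at 21.6, 21.0 and 20.5 FPKM in knockout replicates 1 to 3, against 27.9, 29.7 and 32.2 FPKM in wild-type replicates 1 to 3 (log2 fold change -0.49 ± 0.0844, SE; limma, adjusted p = 0.0198). Glyctk, a glycerate kinase, was at 105 ± 4.62 FPKM in knockout and 79.1 ± 6.02 FPKM in wild type (SD, n = 3 each; limma, adjusted p = 0.0386). Tdh and Dao were listed at 0 in all libraries, and Phgdh and Psat1, which start serine synthesis, were below the filter.

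Of 8 genes from choline to sarcosine, 2 rose, among them Etfdh, and none fell, beside 5.30% higher over all tested genes. Log2 fold changes were negative for 4 of the 8, with a median of -0.024. Etfdh, which takes up electrons from several mitochondrial dehydrogenases including those of dimethylglycine and sarcosine, was at 178 ± 6.57 FPKM in knockout and 140.1 ± 4.62 FPKM in wild type (SD, n = 3 each; limma, adjusted p = 0.0475). Sardh, the sarcosine dehydrogenase gene, averaged 213 FPKM in knockout and 262 FPKM in wild type, without overlap. It was not called (limma, adjusted p = 0.113) and was named after its values were seen, as was Dmgdh above. A further list held genes of phosphatidylcholine synthesis by the choline route, the alternative to Pemt, together with genes that make phosphatidylethanolamine and phosphatidylserine. Of its 11 tested genes, 1 rose (9.09%, beside the same 5.30%). That gene, the cholinephosphotransferase gene Chpt1, was at 52.1 ± 2.23 FPKM in knockout and 39.4 ± 2.40 FPKM in wild type (SD, n = 3 each; limma, adjusted p = 0.0355), and Pisd, which makes phosphatidylethanolamine, was not called (17.3 ± 1.78 FPKM in knockout, 12.6 ± 1.41 FPKM in wild type; limma, adjusted p = 0.0616).

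None of the 16 other methionine cycle genes was called by limma, and 3 of 16 (18.8%) had an unadjusted p under 0.05, beside 25.3% of all tested genes. Mtrr, which keeps methionine synthase active, was at 2.07 ± 0.170 FPKM in knockout and 1.55 ± 0.0580 FPKM in wild type (SD, n = 3 each; limma, adjusted p = 0.159). None of 12 tested folate genes was called, and 3 of 12 had an unadjusted p under 0.05, about the same share as the 25.3% of all tested genes. The folate carrier gene Slc19a1 (4.06 ± 0.460 FPKM in knockout, 2.59 ± 0.410 FPKM in wild type; limma, adjusted p = 0.0516) and Aldh1l1, a folate dehydrogenase (282 ± 30.4 FPKM in knockout, 383 ± 28.2 FPKM in wild type; limma, adjusted p = 0.0579), were nearest to the threshold, with values on opposite sides of wild type.

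**Figure D4:**
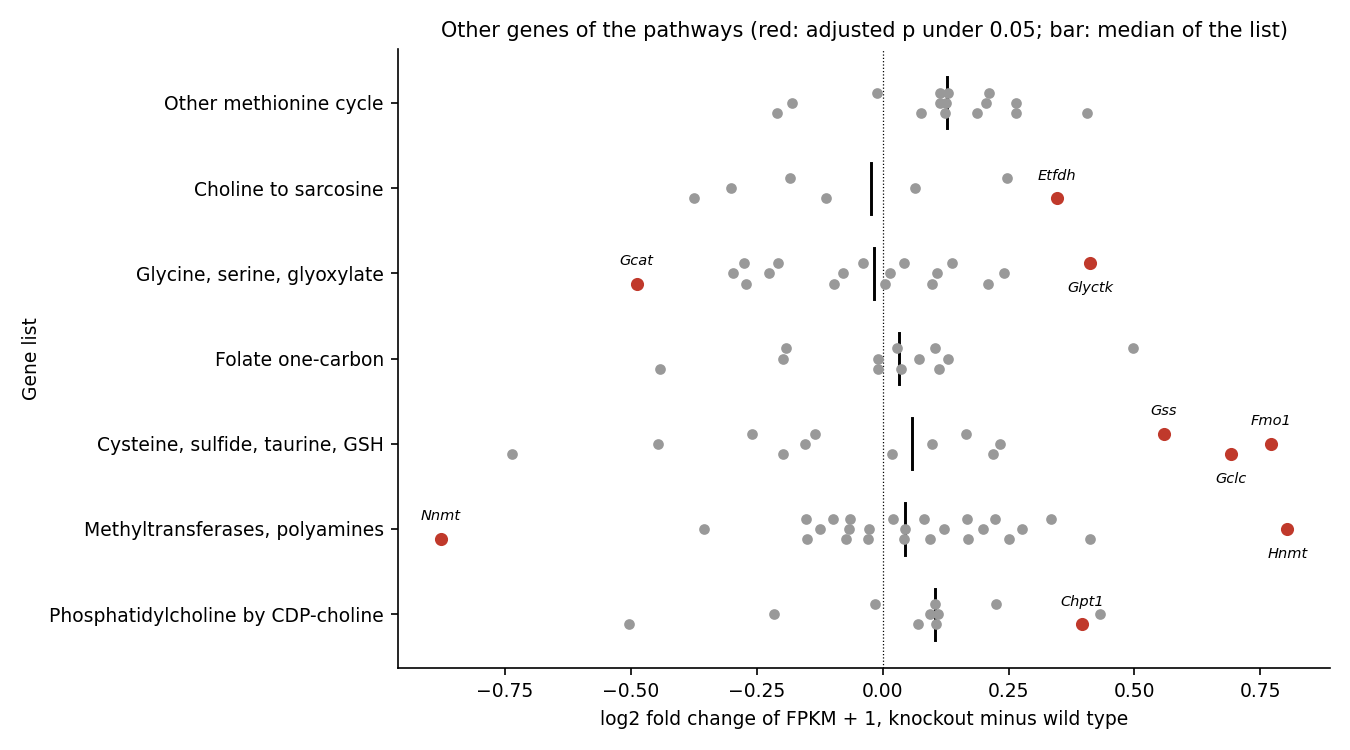
Log2 fold change of FPKM + 1, knockout minus wild type, of the tested genes in 7 lists of related genes (1 row a list; 2 genes are not drawn), with called genes in red and named, other genes in grey, points spread vertically for visibility and a bar at the median of each whole list. Called genes lie on both sides of 0, from Nnmt at -0.88 to Hnmt at 0.80, while the medians lie between -0.024 and 0.13.

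**Figure D5:**
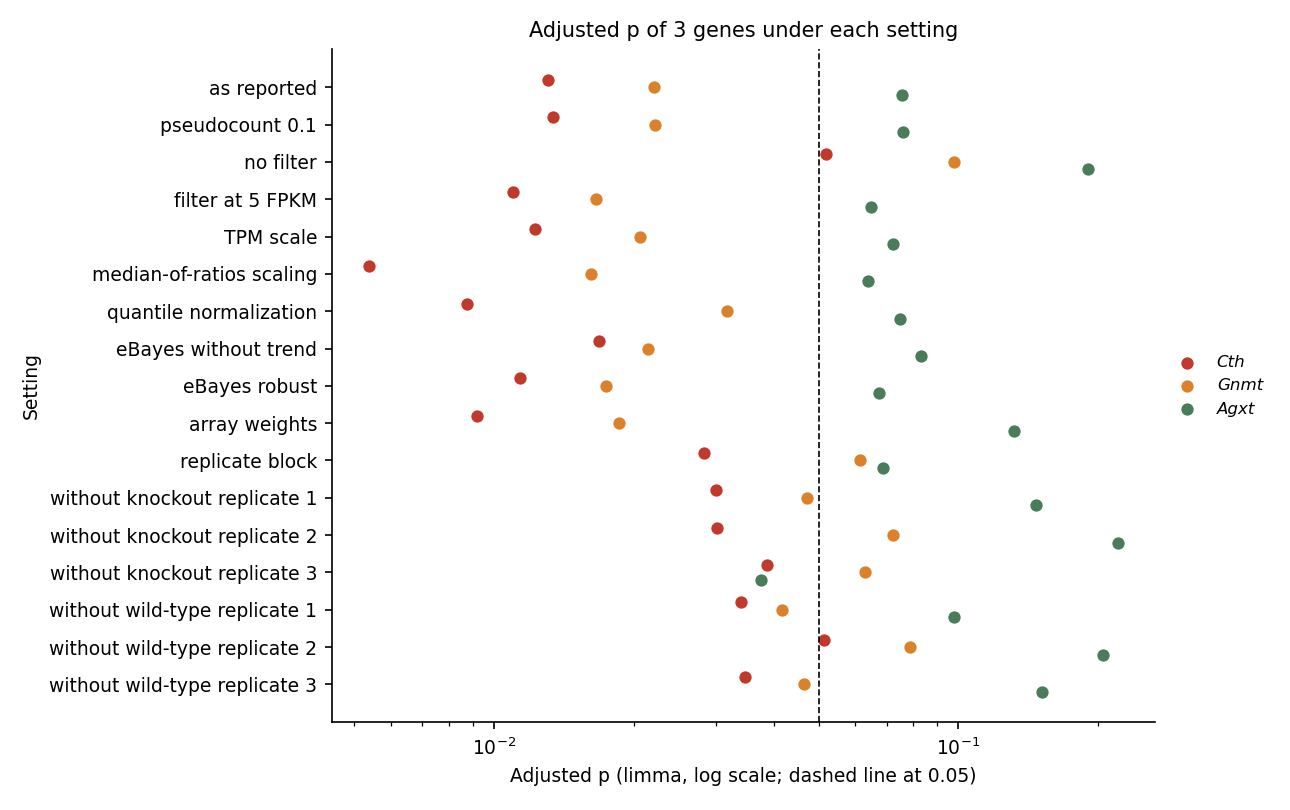
Adjusted p from limma on a log axis for Cth, Gnmt and Agxt under the reported setting and 16 others (1 row each), with a dashed line at 0.05. Cth passes in 14 of the 16 other settings, Gnmt in 11 and Agxt in 1.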

How the data were processed

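Gene expression was measured by RNA-seq. The FPKM values are those deposited by the authors, 1 per gene symbol and library. Per the submitters' processing notes, Bowtie 0.12.2, HISAT2, mm8 and mm10 were used; their roles, the annotation, the counting of shared reads and strand are not given in the sources used here. Per the labels' protocols, Trizol RNA and an Illumina TruSeq kit were used. Groups were taken from titles.

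Knockout was compared with wild type in R 4.3.3 with limma 3.58.1, as a two-sided moderated test with a mean-variance trend (lmFit, eBayes). The fit had genotype alone and used log2(FPKM + 1). Genes averaging 1 FPKM or more entered it, and p-values were adjusted over all of these by the Benjamini-Hochberg method. Fold changes on this scale understate the change of low genes. Ratios and summed copies were tested by exact permutation (scipy 1.17.1, Python 3.11.15). No label says whether replicates are separate animals, so the p-values cover the spread among these 6 libraries only, which may be technical.

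The steps between low FPKM values gave the depth: in a check, 1585 of 1585 genes gave whole reads (within 0.05 reads). Totals rest on annotated lengths, and reads per member are the smallest whole numbers that fit. Positions and transcripts are from GENCODE vM21 (GRCm38), symbol by symbol. Similar transcripts were found with minimap2 2.31 (at least 200 bases at 90%). Plots used matplotlib 3.10.9. The fit was tested on simulated reads. The changes planted there were larger than those of Cth and Gnmt, so changes of that size were not covered.

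The members and lists were chosen with earlier results of these data known. All members were named, with Arrb1, the called genes of each related list, and the 2 smallest p where fewer than 2 were called; other names are marked. Values of 2 genes of the related lists are not reported here; both are in the counts and medians. Alternatives were another pseudocount, other filters, scalings and variance settings, a replicate block and each library left out.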

Additional observations from a re-analysis of the deposited data

How the results depend on the processing

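Counting error of the 10 genes was below the spread between replicates. With no filter, which tested 22476 genes, 0 members, 0 lower and 0 higher related genes were called by limma, and 58 lower and 88 higher genes in all; Cth had an adjusted p of 0.0519 and Gnmt of 0.0979. The related genes called lower numbered 4 with the filter at 5 FPKM and with array weights and 1 after quantile normalization, and those called higher numbered 4 under median-of-ratios scaling and 5 under quantile normalization. All genes called higher numbered 990 with TPM (85.2% of calls), 352 with median-of-ratios factors (60.9%) and 371 with quantiles equalised (64.5%), against 76.8% of calls as reported. The median member log2 fold change was -0.23 after median-of-ratios scaling, against -0.13 as reported. The median over all tested genes moved down with it, from 0.075 to -0.0067. Shmt1 turned to 0.049 on the TPM scale and Bhmt to 0.062 after quantile normalization. The cause of these shifts was not tested.

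Same-numbered libraries deviated together with correlations of 0.17, -0.063 and 0.097, so the numbers were not taken to pair them. With the replicate number as a block, 1 member (Cth) was called, Gnmt had an adjusted p of 0.0614, and 1 lower and 3 higher related genes and 280 higher genes in all were called.

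With each library left out, the counts ran from 0 to 2 for members lower, 0 to 0 for members higher, 0 to 3 and 0 to 7 for related genes lower and higher, and 54 to 119 and 94 to 422 for all genes lower and higher. The median ran from -0.21 to -0.11, the log2 fold changes from -0.29 to 0.041 for Bhmt, -0.19 to 0.014 for Ahcy and -0.15 to 0.14 for Shmt1, and the ratio differences from -0.032 to 0.13 for Bhmt to Bhmt2 and -0.15 to 0.14 for Shmt1 to Shmt2. Cth and Gnmt had negative log2 fold changes under all 16 settings, but most of these could not change the sign. Neither gene had overlapping groups, which fixed the sign with any library left out. The filters, the eBayes settings and the replicate block left the value itself unchanged.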
